A study of Mus musculus with 6 samples.

Results

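Glucocorticoid-responsive genes and metallothioneins were followed in bulk-seq of the spinal cord. The group holds 10 genes chosen by name, the glucocorticoid receptor gene Nr3c1, the 6 responsive genes Fkbp5, Tsc22d3, Sgk1, Zbtb16, Klf9 and Hif3a, and the 3 metallothionein genes Mt1, Mt2 and Mt3. All 10 were found among the 25576 genes with a value above 0 in at least 1 library, and all 10 were above 0 in every library. Whole spinal cords of mice of strain FVB were sampled at postnatal day 4, with 3 libraries labelled SMA and 3 labelled control. The SMA mice were of genotype (mSmn-/-, hSMN22tg/0), the severe Taiwanese model, in which both copies of mouse Smn are lost and the human SMN2 transgene is the remaining source of the protein. The control mice were heterozygous for the loss, (mSmn+/-, hSMN22tg/0), and carried the same transgene, so that they were not wild type. Nothing in the labels states that the libraries of a group came from separate animals, and the methods of the study describe triplicates with an n of 1 in each group. P-values and SDs therefore measure only the spread between libraries, which may be technical.

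Glucocorticoids are adrenal steroids that enter cells and bind a receptor held in the cytoplasm by heat shock proteins and immunophilins. The bound receptor moves to the nucleus, binds DNA as a dimer and raises or lowers the transcription of target genes, among which Fkbp5 and Tsc22d3 are widely used as readouts. Metallothioneins are small cysteine-rich proteins that bind zinc and copper. Mt1 and Mt2 are induced by metals through the transcription factor MTF1 and also by glucocorticoids, and are made in liver and in astrocytes, while Mt3 is found mainly in the nervous system and responds little to either stimulus.

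Values are FPKM, fragment numbers scaled by transcript length and by library size, so that levels can be compared between genes per length, and 21197 to 22296 genes were above 0 in a library. Smn1, the targeted gene, had values of 10.4, 8.64 and 11.9 FPKM for control replicates 1, 2 and 3, against 8.48, 9.30 and 11.1 FPKM for SMA replicates 1, 2 and 3. Values of both groups overlapped, with p = 0.6 in an exact permutation test (two-sided), so the level of the whole gene does not check the genotype labels, and every direction given here rests on those labels. Transcripts of the spinal cord were present in all libraries. Of 10 genes that mark the cord, all 10 were above 0 in every library, led by Hoxb8 at 59.0 to 115.8 FPKM. Their sum was lowest in control replicate 2, at 124.8 FPKM against 189.6 to 246.5 FPKM in the other libraries.

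Control replicate 2 stood apart from the other libraries. Of 17088 genes tested, 1141 (6.68%) lay over 2-fold above every other library there, against at most 3 genes in any other library. A list of 18 hepatocyte markers, all of them above 0 in that library, summed to 32160.1 FPKM or 7.77% of its total, and to between 59.1 and 123.2 FPKM in the others (0.0161% to 0.0338%). Alb, the gene of serum albumin and the most abundant of the list, stood at 15894 FPKM there and at 24.6 to 56.2 FPKM elsewhere, with Ahsg at 4921 and Afp at 2929 FPKM in control replicate 2. Apoc3 was at 0 in control replicate 3 and SMA replicate 3, and no other marker of the list was at 0 in any library. The 9 erythroid markers in the files summed to 18848 FPKM there and to 1115 to 1862 FPKM elsewhere, and the 9 neutrophil markers to 436 FPKM against 6.66 to 13.2 FPKM. They were led by the globin gene Hbb-bs, at 7026 FPKM there and 424 to 694 FPKM elsewhere, and by S100a8, at 205 FPKM there and 2.17 to 4.99 FPKM elsewhere. Elane, a neutrophil marker, was at 0 in control replicate 3 and SMA replicate 1. Neuronal markers were lowest in the same library, at 1991 FPKM summed over 10 genes against 2507 to 2988 FPKM, although Meg3, the most abundant of them, was not lowest there (812 FPKM against 675 to 978 FPKM). In whole tissue, fewer cells of a type and less RNA per cell cannot be told apart. The comparisons of the 10 genes are therefore given over all 6 libraries and over the 5 without control replicate 2.

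Mean levels over the 5 libraries without control replicate 2 were highest for the metallothioneins, with Mt3 at 147 FPKM, Mt2 at 106 FPKM and Mt1 at 73.8 FPKM. Mt3 exceeded Mt2 and Mt2 exceeded Mt1 in each of these 5 libraries, although their ranges over libraries overlapped. Tsc22d3 followed at 23.6 FPKM, then Sgk1 at 17.1 and Nr3c1 at 13.1 FPKM. Ranges of Sgk1 and Nr3c1 overlapped, whereas that of Tsc22d3 lay above both and below that of Mt1. Lower levels were found for Fkbp5 (8.54 FPKM), Klf9 (5.56 FPKM), Zbtb16 (4.39 FPKM) and Hif3a (3.14 FPKM). Fkbp5 was separate from its neighbours in this order, but the ranges of Klf9, Zbtb16 and Hif3a overlapped. In control replicate 2 the order changed, with Mt2 and Mt1 above Mt3.

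SMA was compared with control by limma on log2(FPKM + 1), a scale on which differences at low FPKM come out too small, over genes whose mean reached 0.5 FPKM. All 10 genes entered the test. No gene of the 10 passed an adjusted p of 0.05 (limma with Benjamini-Hochberg adjustment over 17088 genes), where 0 genes (0%) passed in all. On this scale none met the DEG thresholds of an unadjusted p under 0.05 with a fold over 2, which 29 genes (0.17%), 12 higher and 17 lower, met. Hif3a, at 0.74 on this scale, had a ratio of mean FPKM of 2.07. At an unadjusted p under 0.05 alone, limma gave 1 of the 10 as lower in SMA (Nr3c1), beside 409 of all genes (2.39%), and 1 as higher (Hif3a), beside 581 of all genes (3.4%). Higher genes thus made up 58.7% of all calls at that threshold, a share that other scalings moved to 48.3% (median ratio), 46.7% (rescaling to the same total) and 65.5% (quantile). It was 43.75% without SMA replicate 1 and 50.3% to 64.3% with any other library left out. Among genes past the DEG thresholds the share was 41.4%, and 58.6% after quantile normalization. With control replicate 2 left out, 16574 genes were tested, and again none of the 10 passed an adjusted p (2 of all genes, 0.0121%, the RNA genes Rpph1 and Snora74a, named after their values were seen) or, on this scale, the DEG thresholds (0.139%). At an unadjusted p under 0.05, 1 of the 10 was then lower (Nr3c1), beside 862 of all genes (5.2%), and 3 were higher (Hif3a, Mt1 and Mt2), beside 874 of all genes (5.27%). The share of higher genes was 50.3% there and 26.3% after rescaling to the same total. Past the DEG thresholds the balance turned without control replicate 2, with 16 higher and 7 lower genes, a share of 69.6% higher. It also turned without SMA replicate 2 (75%) and without SMA replicate 3 (66.7%). The share was 32% without SMA replicate 1, 26.4% without control replicate 1 and 9.03% without control replicate 3. The median log2 fold change of the 10 genes was 0.02 beside 0.04 over all genes tested, and 0.14 beside 0.00 without control replicate 2. For 1 gene, the smallest two-sided p that an exact permutation test allows is 0.1 with 3 libraries against 3, and 0.2 with 3 against 2.

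**Figure D1:**
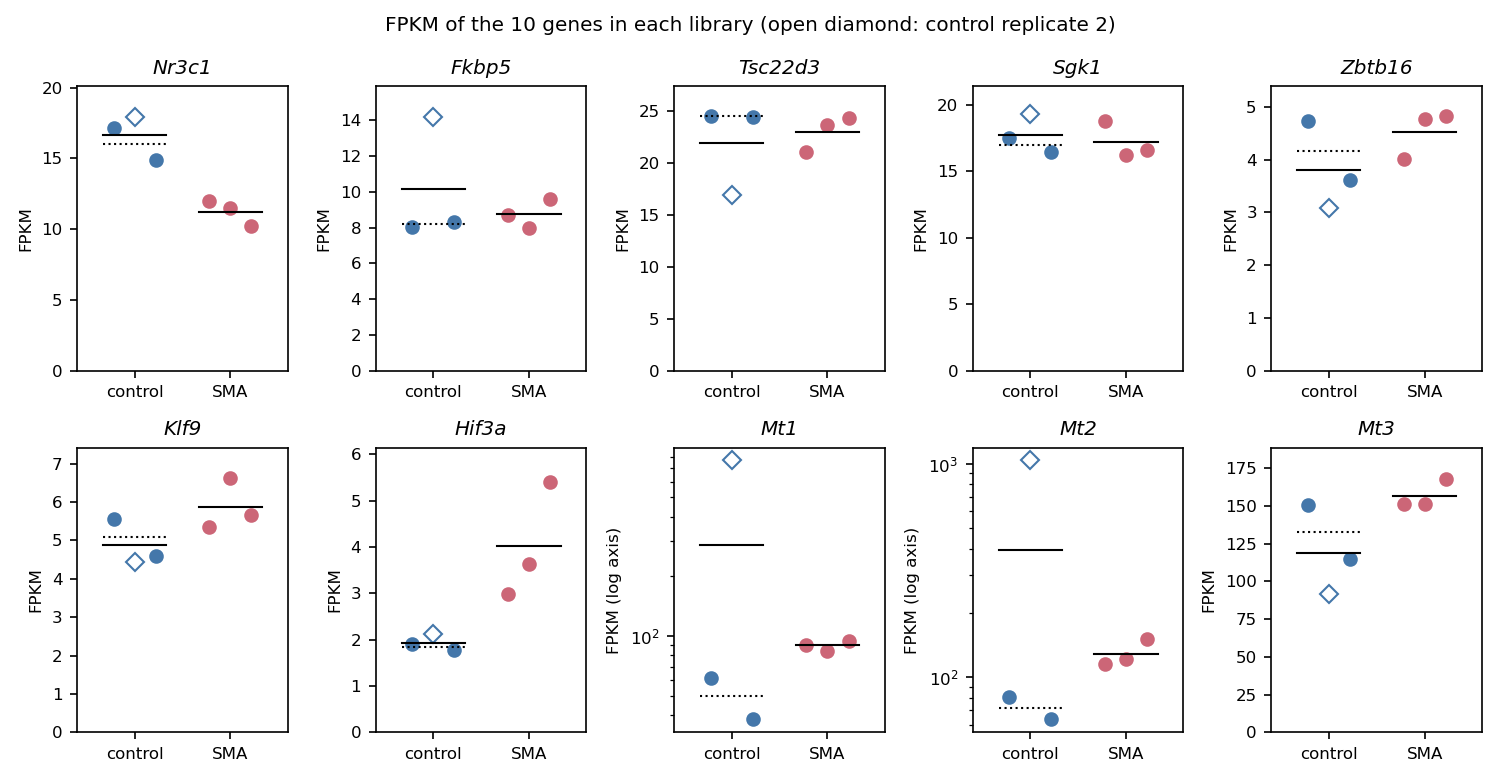
FPKM of each gene by library, with control in blue and SMA in red, control replicate 2 as an open diamond, solid lines for group means and dotted lines for the control mean without control replicate 2. Nr3c1 lies lower and Hif3a higher in every library labelled SMA, and Mt1 and Mt2, on log axes, are highest in control replicate 2 at 767 and 1034 FPKM.

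Nr3c1 (ENSMUSG00000024431) encodes the glucocorticoid receptor. It measured 17.1, 17.9 and 14.9 FPKM in the control libraries (replicates 1 to 3) and 12.001, 11.5 and 10.2 FPKM in the libraries labelled SMA. Every library labelled SMA lay below every control library, and control replicate 2 was close to the other control libraries for this gene. Means were 16.6 ± 1.57 FPKM (SD, n = 3) in control and 11.2 ± 0.899 FPKM (SD, n = 3) in SMA. On the log2 scale SMA minus control was -0.53 (standard error 0.111, limma, unadjusted p = 0.00245, Benjamini-Hochberg adjusted p = 0.683), and the exact two-sided permutation test gave p = 0.1. Leaving out control replicate 2 gave -0.47 (standard error 0.0995, limma, adjusted p = 0.287). Nr3c1 was the only 1 of the 10 genes whose SMA libraries were all lower, where 6.67% of all genes tested showed this. Summed endothelial markers were also lower in every library labelled SMA, although the genes of the list were not alike. At an unadjusted p of 0.05, limma gave 3 of the 8 genes of that list as lower, beside 2.39% of all genes, and 0 as higher, and none passed an adjusted p. Without control replicate 2 it gave 4 as lower, beside 5.2% of all genes, and 0 as higher. Together they summed to 58.9, 85.3 and 69.2 FPKM in control replicates 1 to 3 and to 53.1, 43.4 and 45.9 FPKM in SMA replicates 1 to 3, with no marker at 0. Their most abundant gene, the tight junction gene Cldn5, stood at 25.8, 20.4 and 24.96 FPKM in control and at 16.4, 15.7 and 14.4 FPKM in SMA, all below control. The next in abundance overlapped between the groups, with Egfl7 at 7.86, 23.6 and 15.97 FPKM in control and 11.004, 9.62 and 11.96 FPKM in SMA, and the receptor gene Flt1 at 5.11 to 5.69 FPKM in control and 3.90 to 6.17 FPKM in SMA. SMA libraries were all lower for 4 of the 8 genes, 7 of the 8 had a log2 fold change below 0 and 1 (Ly6c1, named after its values were seen) above it. The part of endothelial cells in the Nr3c1 result was not tested.

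Fkbp5 encodes an immunophilin that binds the receptor complex and lowers its affinity for hormone. It had values of 8.06, 14.2 and 8.32 FPKM for control replicates 1, 2 and 3, against 8.73, 8.002 and 9.59 FPKM for SMA replicates 1, 2 and 3. Control replicate 2 was the highest library, and the other 5 lay within a narrow range with the groups overlapping. Its log2 fold change came to -0.15 over 6 libraries (standard error 0.211, limma, adjusted p = 0.776) and 0.09 without control replicate 2 (standard error 0.102, limma, adjusted p = 0.802), so that its sign depended on 1 library.

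Tsc22d3 encodes GILZ, a leucine zipper protein that mediates part of the anti-inflammatory action of glucocorticoids. It measured 24.5, 16.9 and 24.5 FPKM in the control libraries (replicates 1 to 3) and 21.05, 23.6 and 24.3 FPKM in the libraries labelled SMA. Here control replicate 2 was the lowest library. With all 6 libraries, SMA minus control was 0.08 on the log2 scale (standard error 0.161, limma, adjusted p = 0.851), and it became -0.09 without that library (standard error 0.0782, limma, adjusted p = 0.715). The other control replicates then lay above every SMA library by a small margin, a separation that was lost with quantile normalization.

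Sgk1 encodes a serum- and glucocorticoid-regulated kinase that controls ion channels and transporters. Of the 10 genes, 8 had entries among RefSeq promoter windows (GRCm38.p6), 15 windows in all, each from 250 bases before to 50 bases after an annotated start, while Nr3c1 and Zbtb16 had none. These were searched on both strands for the glucocorticoid response palindrome AGAACA, any 3 bases, then TGTTCT, and for the single site AGAACA, which the palindrome holds. Only 3 of 32851 windows of all genes (0.00913%) held the palindrome, and 1 of these was at 1 of the 6 annotated starts of Sgk1. It is shown because no other of the 15 windows of these 8 genes held the full palindrome, from the plus strand at chr10:21993640-21993889, ahead of an internal start and outside the exons annotated for the gene, with the palindrome in capitals.
Sgk1: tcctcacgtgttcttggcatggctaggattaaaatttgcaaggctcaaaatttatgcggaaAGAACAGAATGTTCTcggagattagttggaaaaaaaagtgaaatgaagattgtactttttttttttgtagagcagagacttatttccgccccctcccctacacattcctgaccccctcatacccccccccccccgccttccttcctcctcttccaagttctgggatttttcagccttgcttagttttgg
The single site was in 19.0% of all windows, in 3 of the 6 windows of Sgk1, in 1 of the 3 of Tsc22d3 and in none of those of Fkbp5, Klf9, Hif3a, Mt1, Mt2 and Mt3. A match describes these letters only, and receptor binding was not measured.

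The level of Sgk1 was intermediate among the 10 genes. It had values of 17.5, 19.3 and 16.5 FPKM for control replicates 1, 2 and 3, against 18.7, 16.2 and 16.6 FPKM for SMA replicates 1, 2 and 3. The groups overlapped with and without control replicate 2. Its difference on the log2 scale was -0.05 (standard error 0.105, limma, adjusted p = 0.871) and 0.01 without control replicate 2 (standard error 0.0855, limma, adjusted p = 0.969).

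Zbtb16 and Klf9 encode zinc finger transcription factors, the former also known as PLZF. Zbtb16 measured 4.74, 3.08 and 3.61 FPKM in the control libraries (replicates 1 to 3) and 4.02, 4.76 and 4.82 FPKM in the libraries labelled SMA. Klf9 had values of 5.56, 4.45 and 4.60 FPKM for control replicates 1, 2 and 3, against 5.34, 6.64 and 5.66 FPKM for SMA replicates 1, 2 and 3. For both genes the groups overlapped because control replicate 1 lay above SMA replicate 1. They no longer overlapped with either of these libraries left out. The log2 fold change of Zbtb16 was 0.21 (standard error 0.157) and 0.10 without control replicate 2. That of Klf9 was 0.23 (standard error 0.128) and 0.18 without control replicate 2. With control replicate 3 left out as well, these became -0.055 for Zbtb16 and 0.064 for Klf9, and with control replicate 1 left out instead 0.26 and 0.29. Over 6 libraries, Zbtb16 passed the unadjusted threshold only without control replicate 1, at 0.35 (limma, unadjusted p = 0.0455, adjusted p = 0.465). Exact two-sided permutation tests gave p = 0.2 for both over 6 libraries, and limma gave an adjusted p of 0.683 for both.

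Hif3a (ENSMUSG00000004328) encodes a hypoxia-inducible factor subunit that can restrain the other HIF alpha subunits and is also induced by glucocorticoids in several tissues. The gene lies on the minus strand of chromosome 7, from 17031507 to 17062427 (GRCm38). It measured 1.92, 2.12 and 1.77 FPKM in the control libraries (replicates 1 to 3) and 2.99, 3.63 and 5.41 FPKM in the libraries labelled SMA. Every library labelled SMA lay above every control library, with the widest spread among the SMA libraries. Means were 1.94 ± 0.175 FPKM (SD, n = 3) in control and 4.01 ± 1.25 FPKM (SD, n = 3) in SMA, a ratio of 2.07. On the log2(FPKM + 1) scale the fold change was 0.74 (standard error 0.192, limma, unadjusted p = 0.00681, Benjamini-Hochberg adjusted p = 0.683), and the exact two-sided permutation test gave p = 0.1. Leaving out control replicate 2 gave 0.79 (standard error 0.204, limma, adjusted p = 0.315). With a pseudocount of 0.1 in place of 1 FPKM the values were 0.97 and, without control replicate 2, 1.04, the latter past the DEG thresholds (limma, unadjusted p = 0.00425, adjusted p = 0.322). Hif3a and Mt3 were the 2 of the 10 genes whose SMA libraries were all higher, where 10.3% of all genes tested showed this. RP23-391I5.6, a gene model on the other strand that shares the span of Hif3a in the files, reached at most 0.166 FPKM.

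Mt1 (ENSMUSG00000031765) and Mt2 (ENSMUSG00000031762) neighbour each other on the plus strand of chromosome 8, Mt2 from 94172618 to 94173567 and Mt1 from 94179089 to 94180325, with Mt3 (ENSMUSG00000031760) upstream of both from 94152607 to 94154148 (GRCm38). An antisense gene, Gm45774, overlaps Mt2 in GENCODE M21. The libraries were strand-specific, but whether strand was used in quantification is not given in the sources used here, so reads of Mt2 and of this antisense gene might not be told apart. How reads shared by the similar Mt1 and Mt2 transcripts were assigned is not given there either. Metal response elements are built on the core TGCACNC or TGCGCNC, which was searched on both strands of the same promoter windows. The stretches before the annotated starts of the 3 genes are shown because Mt1 and Mt2 varied together in these data, with cores in capitals, from the plus strand at chr8:94172368-94172617 for Mt2, chr8:94178839-94179081 for Mt1 and chr8:94152357-94152606 for Mt3.
Mt2: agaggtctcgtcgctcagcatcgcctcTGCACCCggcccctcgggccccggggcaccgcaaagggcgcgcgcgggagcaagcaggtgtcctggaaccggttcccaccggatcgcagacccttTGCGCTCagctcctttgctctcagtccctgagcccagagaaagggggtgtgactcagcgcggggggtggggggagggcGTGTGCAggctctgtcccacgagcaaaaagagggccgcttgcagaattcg
Mt1: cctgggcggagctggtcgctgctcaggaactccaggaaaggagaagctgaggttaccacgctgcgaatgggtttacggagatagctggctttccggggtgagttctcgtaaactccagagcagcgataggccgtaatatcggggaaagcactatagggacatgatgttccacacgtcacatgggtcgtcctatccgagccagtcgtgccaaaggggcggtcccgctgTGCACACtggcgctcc
Mt3: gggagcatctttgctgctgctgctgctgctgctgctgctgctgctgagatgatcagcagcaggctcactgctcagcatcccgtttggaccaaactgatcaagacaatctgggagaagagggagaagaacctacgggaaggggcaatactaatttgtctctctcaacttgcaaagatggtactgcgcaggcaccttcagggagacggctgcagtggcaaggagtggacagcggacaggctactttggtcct
The whole window of Mt2 held 4 cores, 3 of them before the annotated start. That of Mt1 held 3, with 1 before the start, and that of Mt3 held 1, after the start. Each count refers to the 1 window of that gene, and bases more than 50 past its annotated start were not searched. Over all genes, 25.7% of the windows held at least 1 core, 1.97% at least 3 and 0.517% at least 4. Among the other members the core was in the window of Hif3a and in 1 of the 6 of Sgk1.

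Mt1 had values of 61.7, 767 and 38.1 FPKM for control replicates 1, 2 and 3, against 89.9, 84.7 and 94.9 FPKM for SMA replicates 1, 2 and 3. Control replicate 2 was far above all other libraries, whereas the other control libraries lay below every library labelled SMA. The log2 fold change over 6 libraries was -0.45 (standard error 1.04, limma, adjusted p = 0.871), with overlapping groups (exact two-sided permutation test, p = 1.0). In the 5 libraries without it the value was 0.87 (standard error 0.173, limma, unadjusted p = 0.0012, Benjamini-Hochberg adjusted p = 0.287), and the ratio of means was 1.80. It became 0.53 with control replicate 3 left out as well and 1.21 with control replicate 1 left out instead, each against 1 control library.

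Mt2 showed the same pattern. It measured 80.4, 1034 and 63.5 FPKM in the control libraries (replicates 1 to 3) and 114.7, 122 and 151 FPKM in the libraries labelled SMA. All SMA libraries again lay between control replicate 2 and the other control libraries. On the log2 scale the difference was -0.44 (standard error 1.00, limma, adjusted p = 0.867) and 0.84 without control replicate 2 (standard error 0.134, limma, unadjusted p = 3.3e-04, Benjamini-Hochberg adjusted p = 0.221). Mt1 and Mt2 were the 2 of the 10 genes that lay over 2-fold above every other library in control replicate 2, where 6.68% of all genes did. Hepatocyte markers were highest in the same library, as given above, and their part in its metallothionein levels was not tested. Among the other 5 libraries the summed hepatocyte markers were 99.6 and 69.3 FPKM in control replicates 1 and 3 and 59.1, 123.2 and 71.1 FPKM in SMA replicates 1 to 3, with the groups overlapping.

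Without control replicate 2, the SMA libraries were all higher for 4 of the 10 genes (Hif3a, Mt1, Mt2 and Mt3), where 14.2% of all genes tested showed this, and all lower for 2 (Nr3c1 and Tsc22d3), where 13.9% did.

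Mt3, first described as a growth inhibitory factor of brain, did not share the excess of control replicate 2. It had values of 150.4, 91.5 and 114.8 FPKM for control replicates 1, 2 and 3, against 151, 152 and 168 FPKM for SMA replicates 1, 2 and 3. Control replicate 2 was the lowest library, and control replicate 1 came within 1 FPKM of SMA replicate 1. SMA exceeded control by 0.42 on the log2 scale (standard error 0.187, limma, adjusted p = 0.683) and 0.25 without control replicate 2 (standard error 0.112, limma, adjusted p = 0.493). Both values depended on the other control libraries. Over 6 libraries the difference was 0.61 without control replicate 1 (limma, unadjusted p = 0.00684, adjusted p = 0.465), and over 5 it was 0.44 without control replicate 1 and 0.058 without control replicate 3. The separation of the groups was lost under median ratio scaling and under rescaling to the same total, and kept with quantile normalization, where the difference over 5 libraries passed the unadjusted threshold (0.22, limma, unadjusted p = 0.0375, adjusted p = 0.450). Relative to Mt3, Mt1 stood at 0.410 and 0.332 in control replicates 1 and 3, at 8.39 in control replicate 2 and at 0.595, 0.558 and 0.566 in SMA replicates 1 to 3. The ratio of Mt1 to Mt2 varied less, between 0.600 and 0.783 over the 6 libraries.

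**Figure D2:**
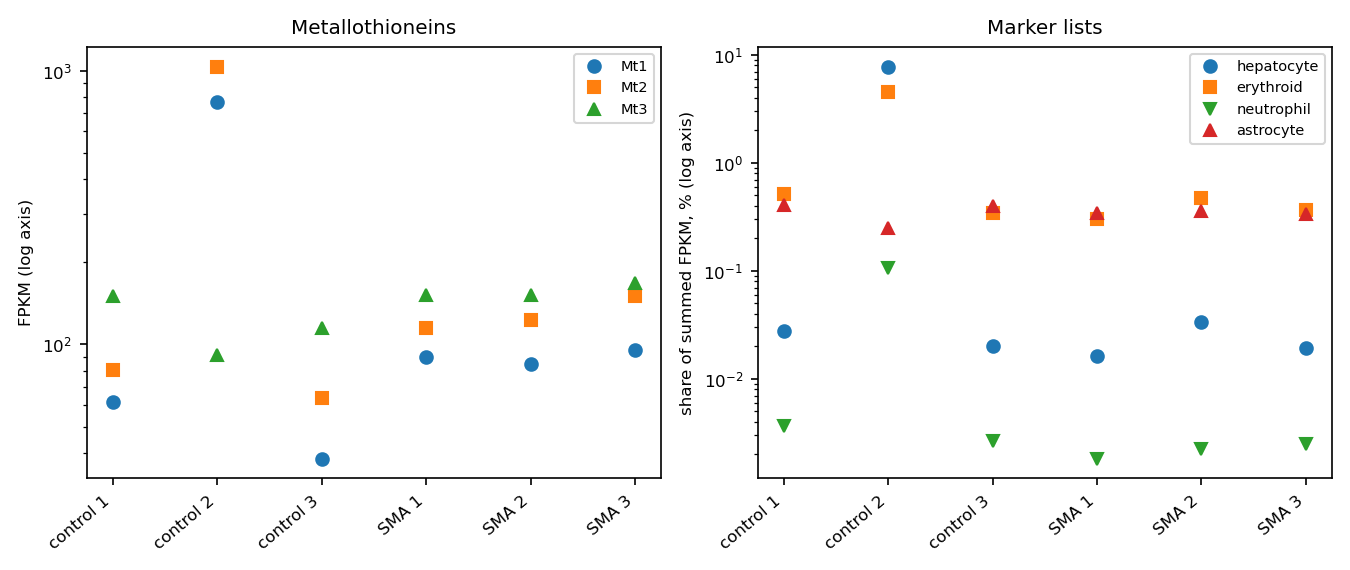
Left, FPKM of the 3 metallothioneins in each library on a log axis, and right, the share of summed FPKM held by hepatocyte, erythroid, neutrophil and astrocyte markers, in percent on a log axis. Mt1 and Mt2 peak in control replicate 2, where the hepatocyte share is 7.77%, while Mt3 and the astrocyte share are lowest there.

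Astrocyte markers, which mark a main site of metallothionein expression in the cord, were examined beside these values. The 10 genes of the list summed to 1452, 1025 and 1370.0 FPKM in control replicates 1 to 3 and to 1244, 1303 and 1231 FPKM in SMA replicates 1 to 3, with no marker at 0. Without control replicate 2 the sums were lower in every SMA library, but this order was lost without Fabp7, a lipid binding protein gene of immature astrocytes. With Fabp7 taken out, after its values were seen, the other 9 genes summed to 826 and 793 FPKM in control replicates 1 and 3 and to 804, 882 and 817 FPKM in SMA, with the groups overlapping. Of the 10 genes, 6 were above 0 on the log2 scale and 4 below without control replicate 2, with a median of 0.03 beside 0.00 over all genes tested. At an unadjusted p of 0.05, limma then gave 2 as lower (Fabp7 and Aqp4), beside 5.2% of all genes, and 1 as higher (Aldoc), beside 5.27%, and none passed an adjusted p. Aqp4, the water channel gene, was chosen after its values were seen and stood at 111.3, 87.8 and 108.8 FPKM in control and at 97.5, 93.7 and 87.8 FPKM in SMA, a log2 fold change of -0.24 without control replicate 2. Fabp7 stood at 626, 395 and 577 FPKM in control and at 440.5, 421 and 414 FPKM in SMA, whereas Aldoc stood at 222, 138 and 195 FPKM in control and at 232, 267 and 265 FPKM in SMA. Gfap, the intermediate filament gene of astrocytes, overlapped between the groups, at 117 to 167 FPKM in control and 119 to 150 FPKM in SMA. The part of astrocytes in the metallothionein levels was not tested.

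**Figure D3:**
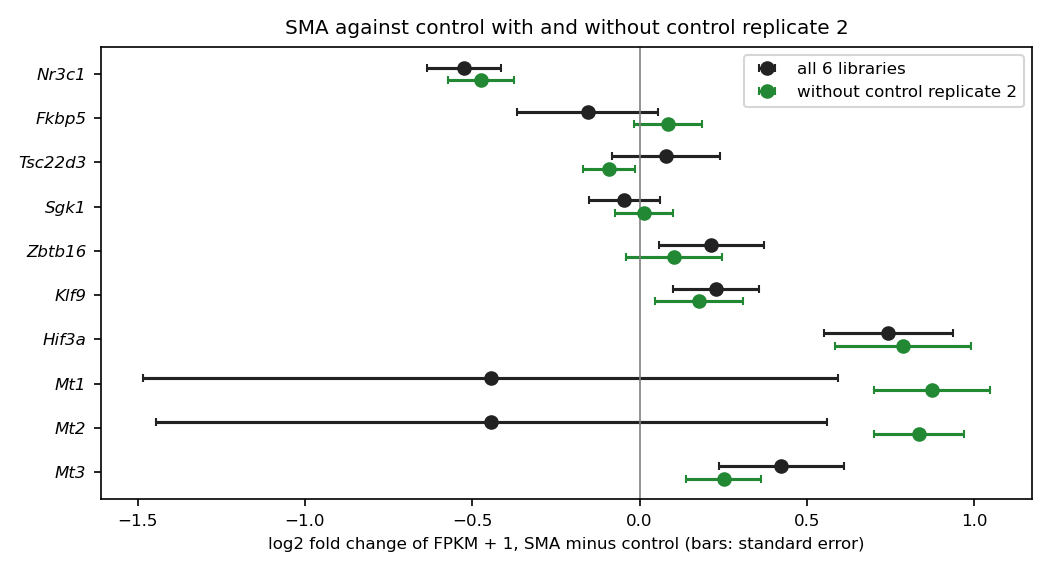
Log2 fold change of FPKM + 1, SMA minus control, with bars for the standard error, over all 6 libraries (black) and without control replicate 2 (green). Nr3c1 lies at -0.53 and -0.47 and Hif3a at 0.74 and 0.79, while Mt1 and Mt2 move from -0.45 and -0.44 to 0.87 and 0.84.

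The genes beside the metallothioneins on chromosome 8 were examined after these values were seen. Of the protein-coding genes within 200 kb, Bbs2, a cilium gene next to the cluster, measured 4.78, 4.45 and 5.93 FPKM in the control libraries (replicates 1 to 3) and 7.02, 6.38 and 7.12 FPKM in the libraries labelled SMA. All SMA libraries lay above all control libraries, and the log2 fold change was 0.38 (standard error 0.125, limma, adjusted p = 0.683) and 0.31 without control replicate 2. Nup93, a nuclear pore gene on the other side, overlapped between the groups, at 14.8 to 16.9 FPKM in control and 13.9 to 17.6 FPKM in SMA. Neither gene shared the excess of Mt1 and Mt2 in control replicate 2. Mt4 was not listed in any library.

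Genes with the most similar profiles were sought for Hif3a, Mt1 and Mt2, the 3 members whose log2(FPKM + 1) values spanned over 1, among 15417 genes averaging 1 FPKM or more, by the root mean square difference of centred log2(FPKM + 1) values over the 6 libraries. Control replicate 2 weighs heavily in this measure for Mt1 and Mt2, which spanned 4.30 and 4.00 over the 6 libraries and 1.29 and 1.23 without it, and the measure was not computed without that library. Mt1 and Mt2 were each other's nearest genes, at 0.14. Next for both came Sepp1, which encodes selenoprotein P of plasma and stood at 975 FPKM in control replicate 2 and at 93.0 to 156 FPKM elsewhere, followed by Dpyd for Mt1 and Glyctk for Mt2, both enzyme genes. For Hif3a the nearest were the pseudogene Gm4202 at 0.09, then Gm29609 and the pseudogene Gm2223. Gm4202 had values of 2.98, 3.35 and 2.55 FPKM for control replicates 1, 2 and 3, against 4.59, 4.86 and 6.55 FPKM for SMA replicates 1, 2 and 3.

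Genes of the receptor's partners, the related receptor gene Nr3c2 and genes of glucocorticoid handling were followed as a list of 12 genes. Of these, 11 were tested. None passed an unadjusted p of 0.05 in either direction over 6 libraries (limma), beside 3.4% of all genes higher and 2.39% lower. The same held without control replicate 2, beside 5.27% and 5.2%, and none passed an adjusted p. The median log2 fold change was 0.10 beside 0.04 over all genes tested, and -0.02 beside 0.00 without control replicate 2. The chaperone genes were the most abundant, with Hsp90ab1 at 234 to 336 FPKM, Hsp90aa1 at 135 to 209 FPKM and the co-chaperone gene Ptges3 at 69.6 to 81.7 FPKM over the 6 libraries. Ncoa1, a coactivator gene, had the smallest p of the list and stood at 16.5, 12.7 and 17.2 FPKM in control and at 17.9, 18.9 and 19.4 FPKM in SMA, all above control. Abcb1a, an efflux pump gene of brain endothelium that exports glucocorticoids, stood at 2.53, 2.77 and 2.45 FPKM in control and at 2.31, 1.62 and 2.06 FPKM in SMA, all below control. H6pd, whose enzyme supplies the cofactor for regenerating active glucocorticoid, stood at 23.8 FPKM in control replicate 2 and at 4.52 to 6.42 FPKM elsewhere. Hsd11b1, of the same list and named after its values were seen, stood at 50.7 FPKM there and at 0.430 to 1.08 FPKM in the others.

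Among 21 other genes known to be induced by glucocorticoids, 20 were tested. At an unadjusted p of 0.05, limma gave 2 as higher in SMA, beside 3.4% of all genes, and 0 as lower, beside 2.39%, and none passed an adjusted p. The 2 were Mfsd2a, a lipid transporter gene of brain endothelium, and Ddit4, an inhibitor of mTOR signalling. Mfsd2a measured 14.3, 11.8 and 15.5 FPKM in the control libraries (replicates 1 to 3) and 21.9, 18.7 and 22.2 FPKM in the libraries labelled SMA, a log2 fold change of 0.56 (standard error 0.129, limma, adjusted p = 0.683) and 0.46 without control replicate 2. Ddit4 stood at 19.9, 13.1 and 19.2 FPKM in control and at 23.5, 22.0 and 24.6 FPKM in SMA, a log2 fold change of 0.43 (standard error 0.165, limma, adjusted p = 0.683). Control replicate 2 was its lowest library, and without it the value was 0.25 (standard error 0.0723, limma, adjusted p = 0.366). For both, every SMA library was above every control library. The endothelial marker sums given above were lower in every library labelled SMA, although Egfl7 and Flt1 overlapped between the groups. The part of endothelial cells in the Mfsd2a result was not tested.

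Without control replicate 2, 18 genes of this list were tested, 5 were higher and 0 lower at an unadjusted p of 0.05 (limma), beside 5.27% and 5.2% of all genes. The median log2 fold change was 0.17 beside 0.00 over all genes, where it had been -0.01 beside 0.04 over 6 libraries. Besides Mfsd2a and Ddit4 these were Cebpb, Sult1a1 and Pdk4, which are named after their values were seen. Cebpb, the gene of a C/EBP transcription factor, had values of 0.454, 2.70 and 0.679 FPKM for control replicates 1, 2 and 3, against 2.20, 1.94 and 2.42 FPKM for SMA replicates 1, 2 and 3. Its log2 fold change was 1.03 without control replicate 2 (standard error 0.151, limma, adjusted p = 0.176) and 0.61 with it. Sult1a1, a sulfotransferase gene, stood at 43.4 FPKM in control replicate 2, at 0.742 and 0.829 FPKM in control replicates 1 and 3 and at 2.16 to 2.21 FPKM in SMA. Pdk4, a kinase gene that restrains glucose oxidation, stood at 5.22 FPKM in control replicate 2, at 0.517 and 0.755 FPKM in control replicates 1 and 3 and at 0.953 to 1.37 FPKM in SMA. Glul, the glutamine synthetase gene and the most abundant of the list, overlapped between the groups, at 132 to 163 FPKM in control and 146 to 175 FPKM in SMA. The same held for Errfi1 at 23.6 to 41.8 FPKM and Cdkn1c at 17.0 to 33.2 FPKM over the 6 libraries, and for Cdkn1a at 15.9 to 25.9 FPKM.

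The 6 genes that glucocorticoids induce in liver followed control replicate 2. They summed to 621 FPKM there and to 1.49 to 3.57 FPKM in the other libraries, led by Igfbp1, at 277 FPKM against 0.122 to 1.35 FPKM elsewhere. Pck1, the gluconeogenic enzyme gene, stood at 141 FPKM in that library and under 1 FPKM in the others, Cps1 of the urea cycle at 126 FPKM, G6pc at 45.9 FPKM and Tdo2 at 8.27 FPKM. Over the 6 libraries none passed an unadjusted p of 0.05 (limma), beside 3.4% of all genes higher and 2.39% lower. The median log2 fold change was -1.90, beside 0.04 over all genes tested. Without control replicate 2 only 2 of the 6 were tested, with a median of 0.34 beside 0.00. The others passed the level filter only through that library. The calls and the median over 6 libraries therefore say nothing about a difference between the groups.

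Of 28 genes of zinc and copper handling, 27 were in the files and 26 were tested. At an unadjusted p of 0.05, limma gave 1 as higher in SMA, beside 3.4% of all genes, and 2 as lower, beside 2.39%, and none passed an adjusted p. Without control replicate 2 it gave 1 as higher and 1 as lower, beside 5.27% and 5.2%. The median log2 fold change was 0.00 beside 0.04 over all genes, and 0.04 beside 0.00 without control replicate 2. Slc39a8, a zinc and manganese importer gene, measured 5.03, 9.88 and 5.04 FPKM in the control libraries (replicates 1 to 3) and 3.32, 3.16 and 2.68 FPKM in the libraries labelled SMA. All SMA libraries lay below all control libraries, with log2 fold changes of -0.86 (standard error 0.245, limma, adjusted p = 0.683) and -0.58 without control replicate 2 (limma, adjusted p = 0.290). Slc30a1, the zinc exporter gene that MTF1 also induces, stood at 10.4, 12.5 and 10.8 FPKM in control and at 9.63, 9.11 and 8.87 FPKM in SMA. Its log2 fold change was -0.26 over 6 libraries (standard error 0.105, limma, unadjusted p = 0.0448, adjusted p = 0.683) and -0.18 without control replicate 2, where it no longer passed the unadjusted threshold (limma, unadjusted p = 0.0661). Atox1, a copper chaperone gene, was higher, at 12.2, 14.7 and 14.7 FPKM in control and 16.7, 17.5 and 19.9 FPKM in SMA, a log2 fold change of 0.36 (standard error 0.117, limma, adjusted p = 0.683) and 0.40 without control replicate 2. Sod1, which binds both metals and was the most abundant gene of the list by its mean, overlapped between the groups at 68.8 to 114.2 FPKM, as did the zinc transporter gene Slc30a9 at 38.2 to 50.2 FPKM. Cp, the gene of the plasma copper protein ceruloplasmin, stood at 135 FPKM in control replicate 2 and at 2.48 to 7.03 FPKM elsewhere.

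**Figure D4:**
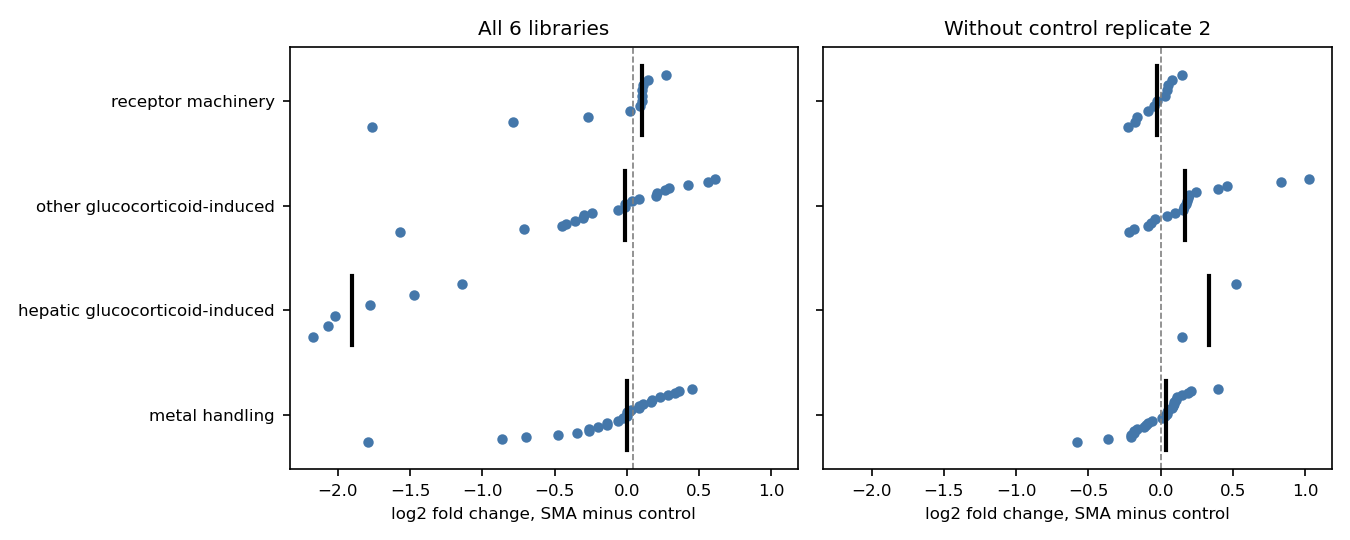
Log2 fold change, SMA minus control, of each tested gene of 4 lists over all 6 libraries (left) and without control replicate 2 (right), with thick bars for list medians and the dashed line for the median of all genes tested. The hepatic list, most of whose genes were tested only through control replicate 2, has a median of -1.90 with that library. The other glucocorticoid-induced genes have a median of 0.17 without it.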

How the data were processed

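Total RNA of spinal cord was depleted of ribosomal RNA and made into strand-specific libraries. The submitters' processing notes name HISAT2, Cufflinks and the build mm10 (GRCm38), and tool versions are not given in the sources used here. The authors deposited 1 table of FPKM per library. Each lists only genes above 0 FPKM, and an absent gene was set to 0. Locus starts, counted from 0 in the tables, are given from 1 here. Of 25576 genes, 25408 were found by identifier in GENCODE M21, and 99.9% of these overlapped their gene there.

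Genes whose mean reached 0.5 FPKM were compared on log2(FPKM + 1) with limma 3.58.1 in R 4.3.3 (lmFit, eBayes with trend), two-sided, with Benjamini-Hochberg adjustment over all genes tested and no covariate. The procedure was tested on simulated data, whose means and spread came from the libraries other than control replicate 2. No simulated library stood apart, so this does not test the fit with control replicate 2 included. Permutation tests used scipy 1.17.1 in Python 3.11.15 on the same scale. Promoter sequences are from RefSeq. Members and lists were chosen with earlier results of these data known. Named are the 10 members, Smn1, the 3 most abundant genes and the 3 with the smallest p of each pathway list, genes from among the 3 most abundant of each marker list, and the genes nearest in profile. Markers at 0 in single libraries, genes overlapping a member, and genes said to have been named or examined after their values were seen fall outside this rule. Ahsp and Mt4 were not listed in any table.

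Because FPKM carries no counts, the number of reads per library is unknown and no counting error can be given. Relative depth, read from the commonest ratio among values under 0.15 FPKM, came to 1.16, 1.09 and 1.03 for the control libraries (replicates 1 to 3) and to 1.01 for SMA replicates 2 and 3, with SMA replicate 1 set to 1. The alternatives were other pseudocounts, filters, scalings, moderation, a replicate block and leaving out each library. Fits of these kinds without control replicate 2, and the genes beside the metallothioneins, were added after the data were seen.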

Additional observations from a re-analysis of the deposited data

How the results depend on the processing

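Over 6 libraries, 135 of 140 alternative values of the 10 log2 fold changes kept their sign with an adjusted p above 0.05 (limma with Benjamini-Hochberg adjustment), and 5 changed sign, all without control replicate 2. Leaving out each library in turn gave -0.285 to 0.086 for Fkbp5, -0.091 to 0.165 for Tsc22d3, -0.106 to 0.013 for Sgk1, -1.27 to 0.87 for Mt1 and -1.17 to 0.84 for Mt2. Over the 5 libraries without control replicate 2, 95 of 100 values kept their sign and their side of the threshold. Sgk1 moved to -0.036 with rescaling to the same total and to between -0.047 and 0.056 with each other library left out, Zbtb16 to between -0.055 and 0.261 and Klf9 to between 0.064 and 0.292. Mt1 ranged from 0.53 to 1.21, and with control replicate 1 also left out, where 1 control library remained and was assumed to vary like the SMA libraries, its adjusted p was 0.0191 (limma, range over all alternatives 0.0191 to 0.733). Mt3 ranged from 0.058 to 0.445 and Mt2 from 0.667 to 1.004 in the same way. A fold over 2 with an unadjusted p under 0.05 was met by Hif3a at 1.038 with a pseudocount of 0.1 FPKM, and by Mt1 and Mt2 without control replicate 1. The cause was not tested.

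Genes past an unadjusted p of 0.05 with a fold over 2 numbered 17 lower and 12 higher, and 125 and 64 with a pseudocount of 0.1 FPKM. Leaving out each library gave 4 to 131 lower and 12 to 28 higher. Genes whose groups did not overlap ranged from 1495 to 2319 lower and from 2313 to 3697 higher with 1 library fewer. An adjusted p of 0.05 was passed by 0 to 2 genes when each library was left out, the 2 being without control replicate 2. Without that library, 1 gene passed with median ratio scaling and 1 with rescaling, and 0 to 43 with another library left out. Of the pathway lists, that with the receptor's partners had 0 to 1 genes at an unadjusted p of 0.05 with each library left out. The other glucocorticoid-induced genes had 1 to 5, and 1 with rescaling, and the metal handling genes 1 to 5.

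Deviations from the group mean correlated at -0.04, 0.02 and 0.08 for same-numbered libraries, and at -0.06 to 0.04 for the other pairs. Control replicate 2 entered the control mean, so these values cannot decide whether the replicate numbers pair the libraries. A replicate block gave 35 lower and 13 higher genes at the same fold threshold. Depth in reads being unknown, no limit of detection can be given for genes at low FPKM.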

Other observations

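Markers of other cell types present in the cord were summed in the same way. Fibroblast markers, led by the collagen gene Col1a2 in 5 of the 6 libraries and by Col3a1 in control replicate 2, summed over 7 genes to 182, 198 and 165 FPKM in the control libraries and to 199, 91.3 and 48.9 FPKM in those labelled SMA, so that SMA replicates 2 and 3 were the lowest. Markers of oligodendrocytes and their precursors, led by Mbp, were highest in control replicate 3 at 1313 FPKM and lay between 767 and 947 FPKM elsewhere. Microglial markers, led by P2ry12 in 5 of the 6 libraries, summed highest in control replicate 2 at 81.4 FPKM, against 61.0 to 65.7 FPKM. The genes of this list were not alike. C1qb, C1qa and Csf1r were highest in control replicate 2, whereas P2ry12, Trem2 and Tmem119 were lowest there. Aif1 and Cx3cr1 lay within the range of the other libraries. C1qa, Trem2, Tmem119, Aif1 and Cx3cr1 are named after their values were seen. Ependymal markers summed to 109 FPKM in control replicate 2, of which Rarres2 made up 100.8 FPKM, and to 9.48 to 11.7 FPKM in the others.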
